A study of Mus musculus with 2 samples.

Results

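Metallothioneins are small cysteine-rich proteins that bind zinc and copper, and the 6 genes described here are Mt1, Mt2, Mt3, Mtf1, Slc30a1 and Slc39a14. They were taken by symbol from the 55536 mouse genes of the deposited tables. The set was selected on measured values, because a difference of Mt2 between the animals was already known from these data. All values of that contrast are therefore a description, and no p-value is given. The samples are heart RNA of 2 adult female B6CASTF1/J mice, sequenced as total RNA. The animals were 8 to 10 months old and belong to the F1 hybrid of a C57BL/6J and a CAST/EiJ parent. The labels name no treatment, and the animals form 1 group with 1 library each. Replicate 1 is labelled animal 1 and replicate 2 animal 3, and the labels carry the same donor identifier for both. With 2 animals an exact sign-flip test has 0.5 as its smallest two-sided p.

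Zinc taken up by a cell is bound by metallothioneins, stored in vesicles or exported. MTF1 is a zinc-finger transcription factor that senses zinc and binds metal response elements near metallothionein genes. SLC30A1 (ZnT1) exports zinc across the plasma membrane, while SLC39A14 (ZIP14) takes up zinc and also iron and manganese. In heart, metallothioneins are known for binding zinc and scavenging oxidants, and Mt3 is known mainly from brain.

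The coding sequences show why the 3 metallothionein genes belong together. They are printed 5′ to 3′ from the GENCODE M21 transcripts, with cysteine codons in capitals.
Mt1 (Mt1-201): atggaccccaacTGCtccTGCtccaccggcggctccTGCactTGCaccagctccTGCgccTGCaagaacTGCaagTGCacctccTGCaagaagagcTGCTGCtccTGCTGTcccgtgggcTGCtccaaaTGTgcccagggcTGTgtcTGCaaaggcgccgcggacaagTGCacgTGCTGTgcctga
Mt2 (Mt2-201): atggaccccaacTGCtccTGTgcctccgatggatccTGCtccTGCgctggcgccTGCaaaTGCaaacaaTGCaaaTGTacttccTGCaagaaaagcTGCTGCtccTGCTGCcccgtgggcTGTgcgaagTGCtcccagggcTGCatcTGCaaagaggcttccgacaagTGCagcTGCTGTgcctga
Mt3 (Mt3-201): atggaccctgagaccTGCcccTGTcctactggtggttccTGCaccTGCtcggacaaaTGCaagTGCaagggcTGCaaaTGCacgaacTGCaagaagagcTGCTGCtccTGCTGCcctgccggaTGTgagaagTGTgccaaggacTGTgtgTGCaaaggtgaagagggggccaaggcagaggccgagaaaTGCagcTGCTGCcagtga
Cysteine took 20 of the 61 codons of Mt1, which is 32.8%, and the same number in Mt2. In Mt3 it took 20 of 68 codons, or 29.4%. Mt1 and Mt2 were identical at 148 of 186 bases (79.6%), with all 20 cysteine codons in the same place. Despite this likeness, no word of 31 bases in a transcript of Mt1, Mt2 or Mt3 occurred in a transcript of another of the 6 genes. Of all such words, 0 of 1273 for Mt1 and 3 of 573 for Mt2 occurred in any other annotated gene.

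The metallothionein genes lie side by side on mouse chromosome 8 (mm10, plus strand). Mt4, which is known from stratified epithelia, spans 94137197 to 94139031, Mt3 94152607 to 94154146, Mt2 94172664 to 94173568 and Mt1 94179082 to 94180327. The cluster from Mt4 to Mt1 is 43131 bases long, and 5514 bases separate the end of Mt2 from the start of Mt1. The regulators lie elsewhere, with Mtf1 on chromosome 4 (124802104 to 124849800, plus strand), Slc30a1 on chromosome 1 (191906767 to 191913247, plus strand) and Slc39a14 on chromosome 14 (70303469 to 70351425, minus strand).

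Upstream sequences of Mt1, Mt2 and Slc30a1 are shown because these genes are textbook targets of MTF1. Capitals mark matches to the core of the metal response element, searched as TGCACNC and TGCGCNC on both strands. The sequences come from RefSeq promoter windows (GRCm38.p6, the same coordinates as mm10), plus strand. They were cut before the RefSeq or the GENCODE start, whichever lies farther upstream. For Mt2 that is the RefSeq start at 94172618, and the GENCODE start is 94172664.
Mt1, chr8:94178839-94179081: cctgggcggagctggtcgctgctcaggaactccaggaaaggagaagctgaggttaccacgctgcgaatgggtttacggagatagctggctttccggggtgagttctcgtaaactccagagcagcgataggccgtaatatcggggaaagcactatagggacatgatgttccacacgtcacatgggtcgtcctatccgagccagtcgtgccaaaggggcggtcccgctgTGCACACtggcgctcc
Mt2, chr8:94172368-94172617: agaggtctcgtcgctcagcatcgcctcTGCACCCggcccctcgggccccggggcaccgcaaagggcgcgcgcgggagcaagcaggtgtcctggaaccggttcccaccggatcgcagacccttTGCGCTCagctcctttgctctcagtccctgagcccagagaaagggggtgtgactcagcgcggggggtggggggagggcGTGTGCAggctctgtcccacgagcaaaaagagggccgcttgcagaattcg
Slc30a1, chr1:191906667-191906766: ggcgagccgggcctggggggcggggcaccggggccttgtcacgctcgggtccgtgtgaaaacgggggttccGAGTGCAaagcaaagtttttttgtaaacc
In the whole window of 300 bases, Mt2 held 4 cores, Mt1 3, Slc30a1 2, Mt3 1 and Mtf1 0. The core of Mt2 at an offset of 4 bases from the RefSeq start lies after the cut and is not printed. Mt4 also held 1, and the window of Slc39a14 was not analysed here. Of 32851 such windows, 25.7% held at least 1 core, 7.114% at least 2, 1.969% at least 3 and 0.5175% at least 4. An antioxidant response element core, TGACNNNGC on either strand, was matched in the windows of Mt2 and Slc30a1 and in 12.39% of all windows.

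Cores also lay inside the annotated exons, which begin upstream of a TATAAA box. Among these are 2 of the 3 cores counted in the window of Mt1 and the 1 counted in that of Mt3, so the counts overlap. The box starts at base 129 of Mt1-201, base 90 of Mt2-201 and base 107 of Mt3-201. A TATAAA lay in the opening 150 bases of the first protein-coding transcript in 1.882% of genes. The sites of Mt1 and Mt2 are given with up to 10 bases on either side and with the core in capitals.
Mt1 first exon, chr8:94179082-94179107: agggagctcTGCACTCcgcccgaaaa
Mt1 first exon, chr8:94179099-94179125: gcccgaaaagTGCGCTCggctctgcca
Mt1 first exon, chr8:94179163-94179189: accgcctgctGGGTGCAaaccctttgc
Mt1 first exon, chr8:94179177-94179203: gcaaacccttTGCGCCCggactcgtcc
Mt2 first exon, chr8:94172666-94172692: gaaaaagggcGTGTGCAggcggcgggg
Mt2 first exon, chr8:94172685-94172711: cggcgggggcGCGTGCAtggtgccttc
Mt2 first exon, chr8:94172719-94172745: gcggagctttTGCGCTCgacccaatac
The opening 150 bases of Mt1-201 held 4 cores, those of Mt2-201 3 and those of Mt3-201 3, all before the TATAAA. Over the first protein-coding transcripts of 21835 genes, 16.56% held at least 1 core in those bases, 0.4671% at least 3 and 0.05038% at least 4. A match is a description of the sequence and not a measured binding site. The labels of the sites follow the annotated exons, and where transcription starts relative to the TATAAA was not tested.

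The depth was 42223411 expected counts for replicate 1 and 40553237 for replicate 2, where an expected count is an estimated number of reads that need not be whole. Levels are in TPM, transcripts per 1000000, which divide by transcript length. The tissue label was checked on marker genes. All 6 cardiomyocyte markers were detected at 1 TPM or more in both hearts, from 355 TPM to 9509 TPM, and 0 of 4 hepatocyte markers were. Ratios between the animals are log2 of TPM + 0.1 in replicate 2 over replicate 1. They were centred on the median of 11876 compared genes, those whose mean reached 1 TPM and whose summed expected counts reached 20. Before centring that median was −0.18. Such ratios compare 2 libraries and have no replicate check. In bulk heart RNA, fewer cells of a type and less RNA per cell cannot be told apart.

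All 6 genes reached 1 TPM in both animals, as did 20.9% of all mouse genes, and all 6 passed the filter for the comparison. By mean level the order was Mt1, Mt2, Slc39a14, Slc30a1, Mtf1 and Mt3. Mt1 and Mt2 together stood at 84.7 TPM in replicate 1 and 166 TPM in replicate 2. They made up 66.6% and 81.6% of the summed TPM of the 6 genes. The means of the neighbours Mt2 and Slc39a14 did not differ beyond the spread between the animals, and their order turned. Within each animal their bounds lay apart. Mt2 was the lower in replicate 1 (10.4 to 14.7 against 27.2 to 32.9 TPM) and the higher in replicate 2 (42.3 to 50.4 against 22.8 to 28.1 TPM). In the gene table Slc30a1 was above Mtf1 in both animals, with deposited credibility bounds that overlapped in replicate 1 and lay just apart in replicate 2. In the FASTQ-derived table the order of this pair turned in replicate 1, with Mtf1 at 5.85 TPM and Slc30a1 at 5.61 TPM.

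**Figure D1:**
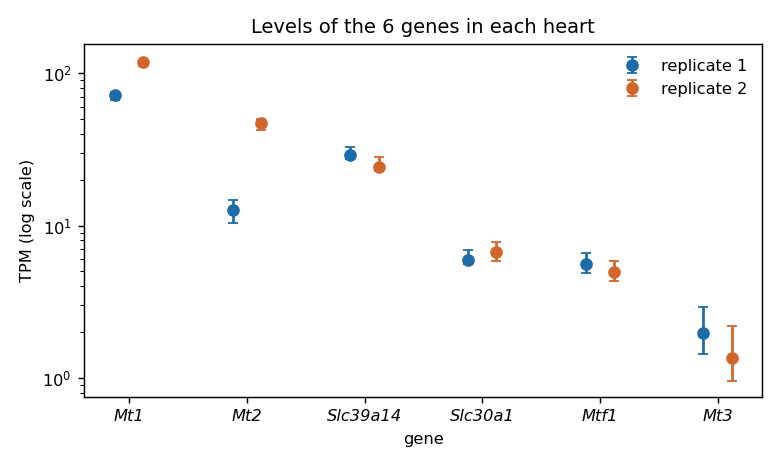
Levels of the 6 genes in TPM on a log scale, with circles for each animal (blue, replicate 1; orange, replicate 2) and bars for the deposited credibility bounds. Mt2 stood at 12.7 and 47.2 TPM and Mt1 at 72.0 and 119 TPM, with bounds apart between the animals, whereas the bounds of the other 4 genes overlapped.

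Mt1, the most abundant of the 6, encodes a ubiquitous metallothionein. It measured 72.0 TPM in replicate 1 (bounds 66.4 to 74.8) and 119 TPM in replicate 2 (bounds 111 to 122), a mean of 95.5 ± 33.2 TPM (SD, n = 2). Replicate 2 was the higher, and the bounds did not overlap. Among protein-coding genes Mt1 ranked 768 by TPM in replicate 1 and 422 in replicate 2. These values rested on 1088 and 1815 expected counts. The centred log2 ratio was 0.91, or 1.87-fold, and 111 of the compared genes had a higher one. From counts per 1000000, without centring, the ratio was 1.74-fold, with an exact binomial 95% interval of 1.61 to 1.87 that covers counting error only.

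Mt2, the partner gene that is usually described as regulated together with Mt1, was farther apart between the hearts. It measured 12.7 TPM in replicate 1 (bounds 10.4 to 14.7) and 47.2 TPM in replicate 2 (bounds 42.3 to 50.4), a mean of 29.9 ± 24.4 TPM (SD, n = 2). Again replicate 2 was the higher and the bounds were apart. Its rank among protein-coding genes was 4043 in replicate 1 and 996 in replicate 2. Expected counts were 139 and 539. The centred log2 ratio was 2.07, or 4.21-fold, and the uncentred ratio of counts per 1000000 was 4.04-fold (exact binomial 95% interval 3.34 to 4.90). Of the compared genes, 20 had a higher ratio and 38, or 0.320%, a larger one in either direction. The FASTQ-derived table, made separately from the reads, gave Mt2 13.8 and 53.8 TPM and Mt1 95.8 and 166 TPM.

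The 2 metallothioneins thus stood in a different proportion in each heart. Mt1 exceeded Mt2 by 5.69-fold in replicate 1 and by 2.52-fold in replicate 2 on the TPM scale. The mean log2 ratio of Mt1 over Mt2 was 1.92 ± 0.83 (SD, n = 2). Mt2 contributed 14.95% of their summed TPM in replicate 1 and 28.4% in replicate 2. By expected counts, which do not divide by length, the ratios were 7.83-fold and 3.37-fold.

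Mt3 was the lowest of the 6. It measured 1.98 TPM in replicate 1 and 1.35 TPM in replicate 2, from 29 and 20 expected counts. The animals' bounds overlapped (1.45 to 2.93 and 0.96 to 2.202 TPM). Its centred log2 ratio was −0.34, and the interval of the uncentred log2 count ratio ran from −1.38 to 0.39, so a difference was not detectable at this depth. Mt4 had 0 counts in both libraries. A count of 0 allows up to 3 counts, that is 0.0712 counts per 1000000 in replicate 1 and 0.0741 in replicate 2.

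Mtf1, the zinc-sensing factor, measured 5.61 TPM in replicate 1 and 4.95 TPM in replicate 2 (5.28 ± 0.467 TPM, SD, n = 2), from 981 and 771 expected counts. Replicate 1 was the higher before centring, and the centred log2 ratio was 0.0058. By counts per 1000000 without centring, Mtf1 was lower in replicate 2, with a log2 ratio of −0.29 (exact binomial 95% interval −0.43 to −0.15). The median of the compared genes was also below 0 before centring, at −0.18 by TPM. The sign of the ratio of Mtf1 thus turned with the scale, and it was −0.17 after centring both by counts and in the FASTQ-derived table.

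The exporter gene Slc30a1 measured 5.96 and 6.76 TPM in replicates 1 and 2 (6.36 ± 0.566 TPM, SD, n = 2), from 1032 and 1071 expected counts. Replicate 2 was the higher, with overlapping bounds. Its centred log2 ratio of 0.36 was 1.29-fold, and 1073 compared genes had a higher one. The interval of its uncentred log2 count ratio, −0.01 to 0.24, included 0. Before centring, the median of the compared genes was itself below 0, at −0.18 by TPM. That interval therefore does not show whether Slc30a1 differed from the median gene. After centring, the log2 ratio by counts was 0.23.

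The importer gene Slc39a14 measured 28.9 TPM in replicate 1 and 24.4 TPM in replicate 2 (26.6 ± 3.16 TPM, SD, n = 2), from 2936 and 2373 expected counts. Replicate 1 was the higher before centring, and the centred log2 ratio was −0.06. In the FASTQ-derived table the levels were 36.7 and 23.8 TPM and the centred log2 ratio −0.48. The tables also differed in how they divided Slc39a14 among its transcripts.

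Counted together, 1 of the 6 genes, Mt2, was at least 2-fold apart between the hearts, beside 1.41% of the compared genes. Mt1 and Mt2 were at least 1.5-fold higher in replicate 2, beside 3.23% of compared genes, and 0 of 6 were that much lower, beside 2.55%. With the bounds of replicate 2 centred, 2 of 6 genes had bounds apart and higher in replicate 2, beside 5.87% of compared genes. In the opposite direction it was 0 of 6, beside 6.90%. Nothing is read from these counts, because the set was chosen with the difference of Mt2 in view.

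**Figure D2:**
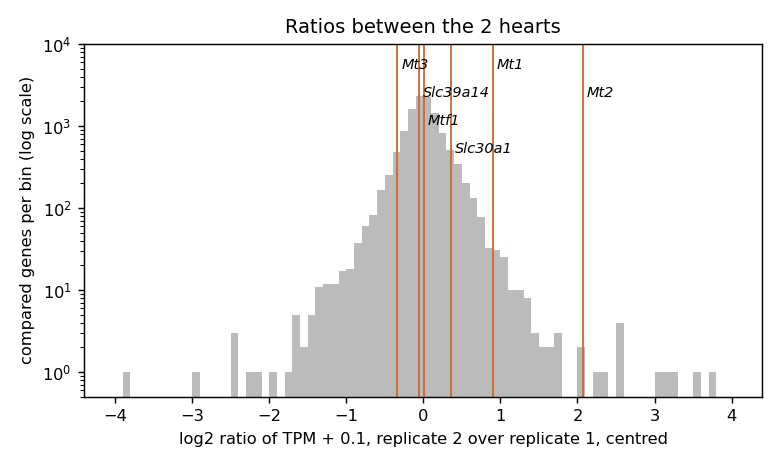
Histogram of the centred log2 ratio (replicate 2 over replicate 1) of the compared genes, with gene counts per bin on a log scale and vertical lines for the 6 genes. The axis runs from −4 to 4 and leaves 19 genes outside; Mt2 at 2.07 and Mt1 at 0.91 lie in the upper tail, and the other 4 lie between −0.34 and 0.36.

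The protein-coding neighbours of the metallothionein cluster within 100 kb were Ogfod1, Bbs2 and Nup93. Ogfod1 measured 11.5 TPM in replicate 1 and 11.4 TPM in replicate 2, with a centred log2 ratio of 0.17. Bbs2, a gene of the ciliary BBSome, measured 3.13 and 3.12 TPM (0.18). Nup93, a nuclear pore gene, measured 4.56 and 4.89 TPM (0.28). All 3 ratios lay above 0 and below that of Mt1. The antisense gene Gm45774, which overlaps Mt2 on the other strand, had 0 counts in both libraries.

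Mt1 and Mt3 were each carried almost wholly by 1 transcript. Mt1-201, with 3 exons, held 99.9% of Mt1 on average, and Mt3-201 held 100% of Mt3. Mt2 has 2 annotated coding transcripts that share the exon at 94173127 to 94173192 and the start of the last exon. They differ in the opening exon, which runs from 94172664 to 94172875 in Mt2-201 and from 94172860 to 94172952 in Mt2-202. The alignment-derived table gave Mt2-202 68.9% of the TPM of Mt2 in replicate 1 and 60.1% in replicate 2. The FASTQ-derived table put the whole gene on Mt2-201, with 1.50e-05% left for Mt2-202. The split of Mt2 between its transcripts thus depended on the table, while replicate 2 was higher for Mt2-201 in both. In the alignment-derived table Mt2-201 had 54.48 and 262.43 expected counts and Mt2-202 had 84.52 and 276.57.

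The transcripts of the regulators were also divided differently by the tables. Mtf1-202, with 12 exons, held 57.9% of the TPM of Mtf1 in replicate 1 and 42.4% in replicate 2, and 61.9% and 61.5% in the FASTQ-derived table. Mtf1-204, annotated as a retained intron, held 33.3% and 40.6%, and 13.0% and 28.6% in the FASTQ-derived table. Because Mtf1-204 is short, its share of the expected counts was 4.37% and 6.02%. Mtf1-203 was at 0 in the alignment-derived table and at 25.1% and 7.62% in the FASTQ-derived one, while Mtf1-201 held 8.73% and 15.2% in the former and 0 in the latter. Slc30a1-201 held 100% and 89.8% of Slc30a1, and the shorter Slc30a1-202 held the remaining 10.2% in replicate 2. In the FASTQ-derived table Slc30a1-202 held 3.84% and 19.4%.

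Slc39a14 has a pair of alternative versions of exon 5, each 170 bases long, and the protein is known to exist in forms that differ by an alternative exon. The exon at 70313601 to 70313770, part of Slc39a14-202, was overlapped by transcripts with 57.1% of the TPM of the gene in replicate 1 and 57.2% in replicate 2. The FASTQ-derived table gave 53.9% and 56.4%. Transcripts that overlap the exon at 70315664 to 70315833, part of Slc39a14-201, held 24.6% and 12.9% in the alignment-derived table and 3.93% and 4.79% in the other. Most of the share in the alignment-derived table came from Slc39a14-212, which has only 41 bases of that exon. Slc39a14-201 and Slc39a14-210, which have the whole exon, stood at 0 TPM there in both animals. Transcripts overlapping the exon at 70313601 to 70313770 thus held the larger share in both animals and both tables. Among the shorter transcripts, Slc39a14-203 held 9.81% and 24.4% in the alignment-derived table and 15.7% and 25.7% in the other. Slc39a14-212 held 22.8% and 11.7% in the former and 0.000463% and 2.05% in the latter. In the FASTQ-derived table Slc39a14-204, Slc39a14-207 and Slc39a14-209 held 12.7%, 11.1% and 10.9% in replicate 1 and 3.95%, 0.477% and 7.65% in replicate 2. In the alignment-derived table these 3 transcripts each held at most 6.20%. By expected counts Slc39a14-202 held 91.1% and 91.7%.

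**Figure D3:**
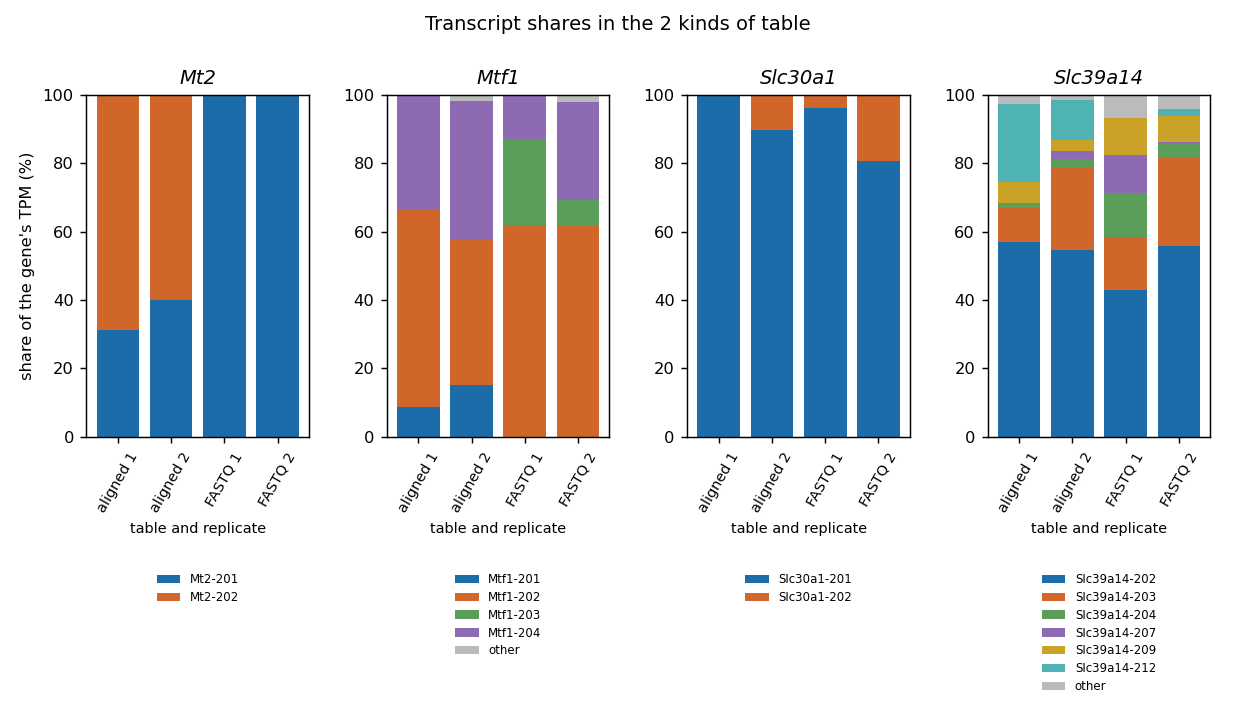
Stacked bars of each transcript's share of its gene's TPM in percent, for the alignment-derived table (aligned) and the FASTQ-derived table (FASTQ) in replicates 1 and 2; grey stands for transcripts under 10% in every bar. Mt2-202 holds 68.9% and 60.1% in the first pair of bars and nearly none in the second, and Slc39a14-202 holds between 42.8% and 57.1%.

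The zinc transporters around the 6 genes were surveyed by family. Of 24 annotated Slc30 and Slc39 genes, 15 reached 1 TPM in both animals, 6 of 10 in the exporter family and 9 of 14 in the importer family. Of all mouse genes, 20.9% reached it. Slc30a8, Slc30a10 and Slc39a5 had 0 counts. Slc30a9, whose product is placed in mitochondria, was the highest at 68.1 TPM in replicate 1 and 52.1 TPM in replicate 2. Slc39a14 came next by mean level. Slc39a1, a plasma membrane importer, followed at 27.1 and 23.3 TPM, and Slc39a7, which releases zinc from the endoplasmic reticulum, at 23.6 and 21.2 TPM.

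Lower in the order came Slc39a13 (8.64 and 7.63 TPM) and Slc30a5, a transporter of the secretory pathway (7.57 and 5.46 TPM). Slc30a1 followed, then Slc39a9 (5.14 and 3.93 TPM) and Slc39a3 (5.19 and 3.72 TPM). The Golgi transporter gene Slc30a7 measured 3.79 and 2.5 TPM, and Slc30a6, whose product pairs with that of Slc30a5, 3.07 and 2.71 TPM. Slc30a4 measured 2.97 and 2.66 TPM, Slc39a10 3.11 and 1.79 TPM, Slc39a8 1.55 and 1.75 TPM and Slc39a6 1.37 and 1.04 TPM. In these hearts Slc30a1 and Slc39a8 were thus higher in replicate 2, and the other named transporters were lower before centring. Among 16 compared transporter genes, 0 were at least 1.5-fold higher in replicate 2, beside 3.23% of all compared genes. In the other direction 1 was that much lower, beside 2.55%. That gene was Slc39a11, at 1.61 and 0.80 TPM with a centred log2 ratio of −0.74. The median ratio was −0.10 for the 6 compared Slc30 genes and −0.12 for the 10 compared Slc39 genes, beside 0 for all compared genes.

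**Figure D4:**
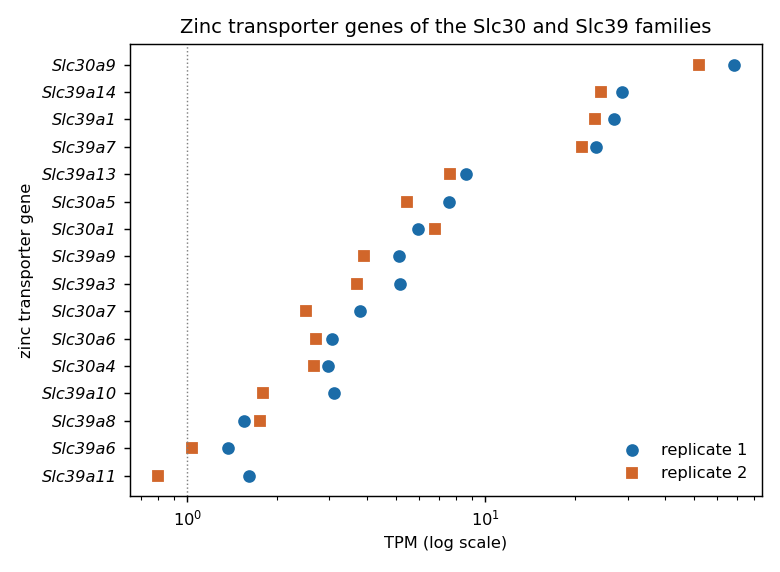
TPM on a log scale of the 16 compared zinc transporter genes in replicate 1 (blue circles) and replicate 2 (orange squares), ordered by mean, with a dotted line at 1 TPM. Slc30a9 leads at 68.1 and 52.1 TPM, and the squares lie left of the circles except for Slc30a1 and Slc39a8.

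The other genes reported as MTF1 targets had smaller ratios than Mt1 and Mt2, in either direction. The list held 10 genes, all compared, and 2 of them, Mt1 and Mt2, were at least 1.5-fold higher in replicate 2, with 0 that much lower. Over all compared genes, 3.23% were that much higher and 2.55% that much lower. The median of the list was 0.12. Mt1 and Mt2 are part of the list, and the set was chosen with the difference of Mt2 in view. Nothing is therefore read from the count or the median. Selenow, a selenoprotein gene and the second highest of the list after Mt1, measured 73.3 TPM in replicate 1 and 66.3 TPM in replicate 2, with a centred log2 ratio of 0.04. The lowest ratio was that of Slc39a10, at −0.58. The list was not divided by whether MTF1 raises or lowers a gene, so the sign of a ratio has no set reading.

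Metallothionein genes are also known to respond to glucocorticoids and to interleukin 6 signalling, so these lists were set beside them. Of 15 glucocorticoid-responsive genes, all compared, 2 were at least 1.5-fold higher in replicate 2 and 4 at least 1.5-fold lower. Over all compared genes, 3.23% were that much higher and 2.55% that much lower. The clock gene Per1 measured 12.3 and 28.1 TPM (centred log2 ratio 1.38), and the transcription factor gene Cebpd 0.87 and 1.20 TPM (0.61). Those lower were Zbtb16, a zinc-finger factor gene, at 74.9 and 25.4 TPM (−1.37), and Angptl4, a lipase inhibitor gene, at 2.61 and 1.00 TPM (−1.12). Pdk4, a kinase gene of pyruvate dehydrogenase, stood at 139 and 76.2 TPM (−0.68), and the repressor gene Bcl6 at 5.45 and 3.08 TPM (−0.62). The list therefore moved both ways, with a median of 0.05.

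In the list of interleukin 6 and acute-phase genes, 10 of 14 were compared. Only Cebpd was 1.5-fold apart, beside 3.23% of all compared genes higher in replicate 2 and 2.55% lower. The median of the list was 0.04. The receptor subunit gene Il6st measured 100 TPM in replicate 1 and 86.2 TPM in replicate 2, and the transcription factor gene Stat3 39.7 and 30.6 TPM. Both lay near the median of all genes after centring, at −0.04 and −0.19.

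Immediate early genes, which cells switch on within minutes of a stimulus, had the largest median of the 9 lists, 0.55, over their compared genes. The lists were chosen with earlier results of these data known, so this rank is a description. Of 14 genes 11 were compared, and 5 were at least 1.5-fold higher in replicate 2, beside 3.23% of all compared genes. In the other direction it was 0, beside 2.55%. Fos and Fosb, AP-1 subunit genes, had centred log2 ratios of 3.25 and 3.03. Both were below 1 TPM in replicate 1, with Fos at 0.88 and 8.11 TPM and Fosb at 0.43 and 3.71 TPM. Their means reached the 1 TPM of the filter only through replicate 2, where they were higher. Egr2 (0.36 and 0.26 TPM), Egr3 (0.42 and 0.59 TPM) and Myc (0.92 and 0.63 TPM) stayed below it, so the median leaves them out. Nr4a1, a nuclear receptor gene, measured 2.59 and 6.39 TPM (1.45), Egr1 1.90 and 4.51 TPM (1.39) and Ier2 4.72 and 6.74 TPM (0.69). The most abundant of the list were Jun, at 21.5 and 19.3 TPM (0.03), and Ier3, at 23.6 and 16.6 TPM (−0.32). Replicate 2 was thus higher for Mt1, Mt2 and these 5 genes. Of the 11 compared early genes, 8 had a centred ratio above 0 and 3 below 0. Whether the difference of the metallothioneins goes with that of the early genes was not tested.

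**Figure D5:**
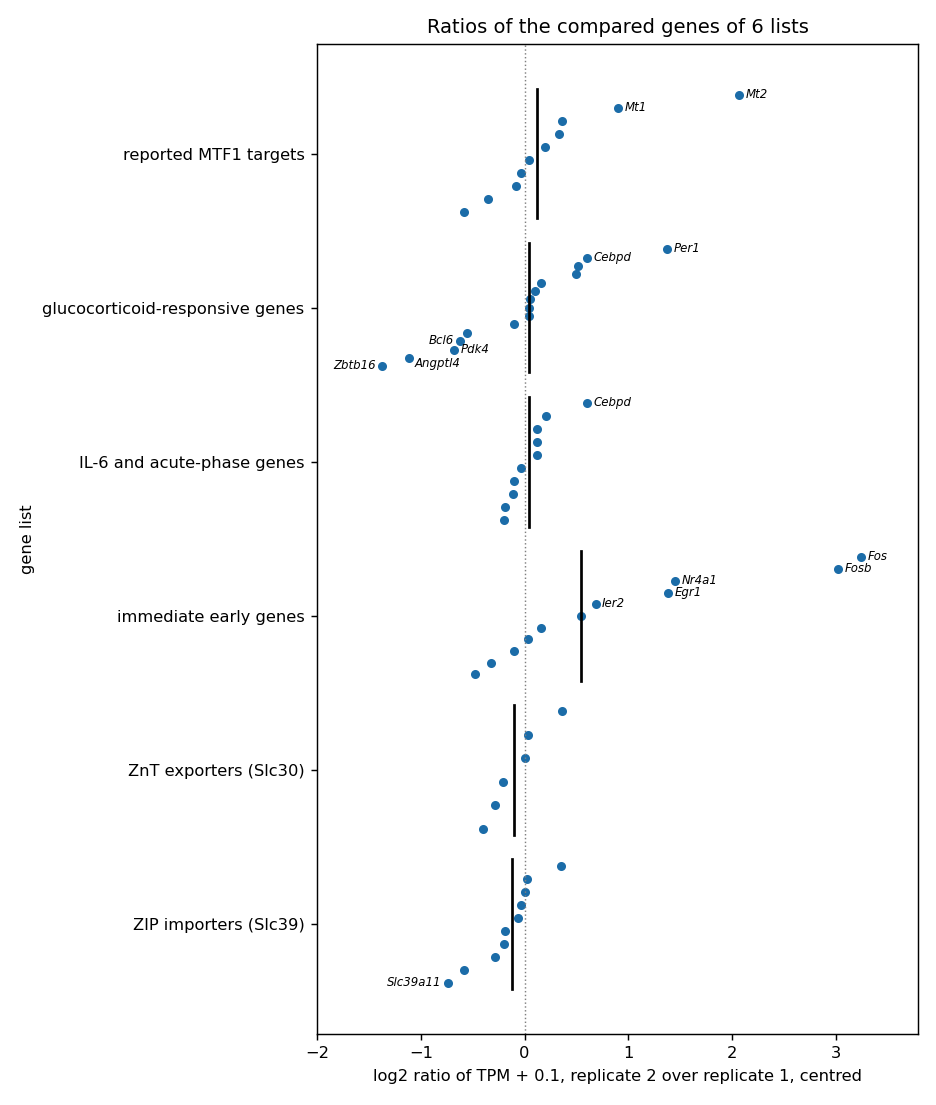
Centred log2 ratios (replicate 2 over replicate 1) of the compared genes of 6 lists, 1 point per gene, with a bar at each list's median and names for genes at least 1.5-fold apart. Among MTF1 targets only Mt1 (0.91) and Mt2 (2.07) are named, and 5 immediate early genes lie to the right of 0.6.

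Marker genes of other cell types differed between the libraries as well. All 5 red blood cell markers were lower in replicate 2, with a summed level of 3478 TPM in replicate 1 and 2255 TPM in replicate 2 and a median ratio of −0.43. Of 5 epicardial and mesothelial markers 4 were higher in replicate 2, and Upk3b (0.66) and Msln (0.76) were at least 1.5-fold higher. The epicardial gene Wt1 went the other way, at 2.10 and 1.28 TPM (−0.49). The 5 markers summed to 13.4 and 16.6 TPM. The medians of the 5 endothelial, 5 fibroblast and 5 macrophage markers were −0.11, −0.04 and 0.06, with 0 genes 1.5-fold apart. Over all compared genes, 3.23% were that much higher in replicate 2 and 2.55% that much lower. The 4 hepatocyte markers summed to 0.21 and 0.38 TPM, with Alb at 0.02 and 0 TPM, so the markers of liver cells, which are rich in metallothioneins, were near 0. Of 5 markers of neurons and glia, which express Mt3, only Mbp reached 1 TPM in both hearts (1.97 and 1.70 TPM), and Gfap stood at 0.06 and 0.01 TPM. The part of red blood cells, mesothelium and glia in the levels of the 6 genes was not tested.

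Over these 2 libraries, the compared protein-coding genes nearest to Mt2 in centred log2 ratio were Cd300ld5 (2.21), Snai3 (2.35), Cd52 (1.72), B3gnt2 (1.71) and Ciart (1.501). They differed from Mt2 by 0.14 to 0.57. All 5 had lower levels than Mt2, from 0.59 TPM to 4.42 TPM in replicate 1. In the FASTQ-derived table Cd300ld5 measured 1.70 and 1.76 TPM, so its ratio was not seen there. Nearest to Mt1 were Il33 (0.91), Gm49356 (0.90), Mtss1 (0.91), Fgd1 (0.90) and Zmym3 (0.90). The farthest of them, Zmym3, differed from Mt1 by 0.0104. A likeness over 2 libraries is a single ratio per gene and describes nothing further.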

How the data were processed

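Total RNA of 2 hearts was sequenced from 300 ng of input with ERCC spike-ins, per the labels, and each library has a gene table and 2 kinds of transcript table. The assembly (mm10) and annotation (GENCODE M21) are named in the deposited description files, by which the gene table and 1 transcript table came from transcriptome alignments, the other from a FASTQ file. Neither aligner nor quantification tool is given in the sources used here. Per the file headers, the values are expected counts (estimated counts), TPM and FPKM (FPKM was not used). The isoform percent is, per the file headers, a transcript's share of its gene. The deposited credibility bounds of TPM, treated as a signal range, have no level stated in those sources. Reads were assigned to the C57BL/6J reference, and the effect on reads of the CAST/EiJ allele was not tested.

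Levels, shares and ratios were computed with Python 3.11.15, pandas 2.3.3 and scipy 1.17.1, and the ratio step was checked on simulated counts. Depth was 42223411 and 40553237 expected counts, and the median protein-coding gene at about 1 TPM rested on 75 and 76.8 of them. Ratios added 0.1 TPM, which understates differences of low genes. Intervals and floors cover counting error only, and expected counts are not counts of independent molecules. With 1 group there was no contrast and no test. The members and the 9 gene lists were chosen with earlier results of these data known. Named were the 6 genes, their transcripts at 10% or more in either table, Mt4 and coding neighbours within 100 kb, and transporters at 1 TPM or more in both animals. Of each other list the highest 2 genes by mean TPM and those at least 1.5-fold apart were named, and the 5 genes nearest in ratio to Mt1 and to Mt2. Cell type markers were named after their values were seen, as were Slc39a10, Slc39a11, the early genes Egr2, Egr3 and Myc, and the 3 transporters with no counts.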

Additional observations from a re-analysis of the deposited data

How the results depend on the processing

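The results were recomputed under 122 alternatives, of which 96 stayed within the replicate spread or counting interval (for counts, within 1.5 times), and 26 moved. No ratio of at least 2-fold changed sign, but that of Mtf1 (0.0058) turned negative under 5 of 8 alternatives. With no centring, the log2 ratio of replicate 2 over replicate 1 was 0.72 for Mt1, −0.18 for Mtf1, 0.18 for Slc30a1 and −0.24 for Slc39a14. By counts per 1000000, centred the same way, it was −0.17 for Mtf1 and 0.23 for Slc30a1, and by the FASTQ-derived table −0.17 for Mtf1 and −0.48 for Slc39a14. Compared genes at least 2-fold apart numbered 168, but 79 with a pseudocount of 1 TPM and 1773 of 23634 with no filter on low values. Rescaled over nuclear protein-coding genes, mean TPM was 274 for Mt1, 87.6 for Mt2, 4.65 for Mt3, 14.9 for Mtf1, 18.0 for Slc30a1 and 74.8 for Slc39a14. In the FASTQ-derived table it was 131 for Mt1, 2.46 for Mt3 and 30.2 for Slc39a14. At a threshold of 5 TPM, 7 transporter genes were counted. The mean share of Mt2-202 was 64.5%, but 1.50e-05% in the FASTQ-derived table, that of Mtf1-202 50.2% against 61.7%, and that of Slc39a14-202 55.8% against 49.3%. By expected counts, an alternative chosen after seeing the data, these shares were 56.1%, 75.9% and 91.4%. The cause was not tested. Centring on 22 spike-ins moved the centre from −0.18 to −0.21. Leaving out either animal leaves 1 library, so Mt2 ranged from 12.7 TPM to 47.2 TPM and Mt1 from 72.0 TPM to 119 TPM. No paired analysis was possible because the series has 1 group. Mt3, with 29 and 20 counts, is limited by depth.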

Other observations

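Metallothioneins also bind copper, and genes of copper handling were surveyed as well. Of 12 such genes 11 were compared, and 0 were 1.5-fold apart in either direction. Over all compared genes, 3.23% were that much higher in replicate 2 and 2.55% that much lower. The median of the centred log2 ratio of the copper genes was 0.06. The highest were Sod1, the copper and zinc superoxide dismutase, at 203 TPM in replicate 1 and 186 TPM in replicate 2, and Cox17, a copper chaperone of cytochrome oxidase, at 98.7 and 105 TPM. In the gene table Sod1 thus stood above Mt1 in both animals, and Cox17 stood above Mt1 in replicate 1 only. In the FASTQ-derived table Cox17 measured 88.3 and 92.7 TPM, below Mt1 in both animals (95.8 and 166 TPM).

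All 12 genes of iron handling were compared, with a median of −0.05. Of these, 0 were 1.5-fold apart, beside 3.23% of all compared genes higher in replicate 2 and 2.55% lower. The ferritin chain genes were the most abundant, Fth1 at 1131 and 991 TPM and Ftl1 at 121 and 80.8 TPM. Of 10 targets of the oxidant-responsive factor NRF2, 9 were compared, with a median of −0.10. Again 0 were 1.5-fold apart, beside the same shares of all compared genes. Prdx1, a peroxiredoxin gene, measured 236 and 178 TPM, and Nqo1, a quinone reductase gene, 26.1 and 24.2 TPM.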
